A study of Homo sapiens with 132 samples.

Results

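Inhibitor of DNA binding (ID) genes and the bone morphogenetic protein (BMP) signalling genes around them were followed through the RNA sequencing libraries of 4 human gastric cancer cell lines. The set had 9 members, taken by gene symbol out of 65217 gene identifiers: ID1, ID2, ID3, ID4, SMAD6, SMAD7, BMP2, BMP4 and BMPER. The lines were MKN1, MKN7, NCI-N87 and Hs746T, grown with serum in RPMI (Hs746T in DMEM), with fresh medium shortly before treatment. All 4 lines were left untreated or received trastuzumab (5 µg/ml, an antibody against ERBB2), afatinib (0.5 µM, an irreversible kinase inhibitor of the ERBB family) or both. MKN1 and Hs746T also received EGF (5 ng/ml, a ligand of EGFR), cetuximab (1 µg/ml, an antibody against EGFR) or both. RNA was taken after 4 h and 24 h, with 3 replicates in each of 44 groups. A cell line is a single tumour's descendant, so differences between lines are differences between these 4 cultures. Afatinib was compared with untreated cells and not with its solvent DMSO, so drug and solvent cannot be told apart in these libraries. The study refers to earlier western blots in which DMSO had minor effects beside afatinib. It also states that DMSO was a control when selected genes were checked by qPCR.

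BMPs are secreted ligands that bind paired type I and type II receptor kinases, which phosphorylate SMAD1, SMAD5 and SMAD9. Together with SMAD4 these enter the nucleus and switch on targets, of which the ID genes are among the most direct. ID proteins lack a DNA-binding region and hold E proteins of the basic helix-loop-helix family off DNA, which in many cell types keeps cells undifferentiated or dividing. SMAD6 and SMAD7 are inhibitory SMADs that the pathway itself induces and that restrain it, SMAD6 mainly on the BMP side and SMAD7 on both the BMP and the TGF-beta side. BMP2 and BMP4 are ligands, and BMPER is a secreted protein that binds BMPs and can limit or assist their action. MAP kinase signalling below EGFR is known to phosphorylate the linker of SMAD1.

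The 9 genes lie on 8 chromosomes. In GRCh38 with GENCODE 29 they are ID1 at chr20:31605283-31606515 (plus strand), ID2 at chr2:8678845-8684453 (plus), ID3 at chr1:23557918-23559794 (minus), ID4 at chr6:19837386-19840684 (plus), SMAD6 at chr15:66702228-66782848 (plus), SMAD7 at chr18:48919853-48952052 (minus), BMP2 at chr20:6767664-6780280 (plus), BMP4 at chr14:53949736-53958761 (minus) and BMPER at chr7:33904308-34156356 (plus). Each value comes from 1 read count for the whole gene, with no split by transcript. The antisense gene ID2-AS1 overlaps ID2 and was counted at 0.0411 to 4.77 CPM, and reads of the pair cannot be told apart because the strand setting of the counting is not given in the sources used here.

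The 250 bases before the annotated start are shown for ID1, ID2, ID3 and SMAD6, examples of targets whose levels moved in more than 1 line (SMAD7 also did and is not printed). They are RefSeq windows of GRCh38.p14, read 5′ to 3′ on the strand of the gene, and capitals mark matches to the motifs given after them.
ID1, chr20:31605039-31605288, plus strand: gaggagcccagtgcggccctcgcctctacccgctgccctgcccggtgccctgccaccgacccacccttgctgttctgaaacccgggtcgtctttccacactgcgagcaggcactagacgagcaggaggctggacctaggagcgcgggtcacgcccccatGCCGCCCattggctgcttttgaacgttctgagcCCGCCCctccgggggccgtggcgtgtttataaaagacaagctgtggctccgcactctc
ID2, chr2:8681806-8682055, plus strand: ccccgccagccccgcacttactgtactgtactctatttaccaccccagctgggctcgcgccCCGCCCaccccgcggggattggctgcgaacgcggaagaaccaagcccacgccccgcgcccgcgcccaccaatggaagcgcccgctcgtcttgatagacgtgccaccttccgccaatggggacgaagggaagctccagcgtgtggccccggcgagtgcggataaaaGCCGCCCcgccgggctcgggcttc
ID3, chr1:23559502-23559751, minus strand: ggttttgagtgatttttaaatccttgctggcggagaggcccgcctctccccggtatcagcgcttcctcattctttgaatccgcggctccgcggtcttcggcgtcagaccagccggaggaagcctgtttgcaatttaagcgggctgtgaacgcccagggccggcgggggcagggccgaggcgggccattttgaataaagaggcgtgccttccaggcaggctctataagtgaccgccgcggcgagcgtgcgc
SMAD6, chr15:66701986-66702235, plus strand: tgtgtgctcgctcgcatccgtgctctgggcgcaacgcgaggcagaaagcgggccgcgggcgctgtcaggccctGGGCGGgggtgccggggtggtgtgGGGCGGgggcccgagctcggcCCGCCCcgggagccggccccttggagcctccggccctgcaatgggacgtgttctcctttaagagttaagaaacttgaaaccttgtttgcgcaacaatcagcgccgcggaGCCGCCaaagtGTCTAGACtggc

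Of the 9 genes, 8 matched the RefSeq promoter table, in 13 windows, out of 35116 windows in all. BMP2 is named only. 12 motifs were searched on both strands. The palindrome GTCTAGAC, a form of the SMAD binding element, lay in 0.182% of all windows and in SMAD6 alone among the members, 12 bases before the RefSeq start. The GC-rich forms associated with BMP SMADs were GGCGCC (16.4% of all windows; BMP4 and BMPER), TGGCGCC (4.64%; no member) and GGCGGC (29.2%; ID1, ID2, SMAD6 and BMP4). The short SMAD box CAGACA lay in 13.6% (BMP4). Of other factors' motifs, GGGCGG (42.6%) was found for ID1, ID2, ID4, SMAD6, BMP4 and BMPER, CCGGAA (14.5%) for SMAD7 and BMP4, GGAAGT (19.5%) and CACGTG (6.34%) for BMP4, and TGACGTCA (1.65%), TGACGT (7.1%) and TGAGTCA (4.2%) for no member. TGGCGCC contains GGCGCC, TGACGTCA contains TGACGT, and GGGCGG can overlap GGCGGC. The ID3 window held none of the 12 motifs. The 4 printed windows were 62% to 69.2% G or C, beside a median of 58% over all windows.

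Libraries held 25832557 to 69434151 counts (median 50725775), so 3 counts, the limit used for a gene at 0, stood for 0.0432 to 0.116 CPM (counts scaled to a common library size). Intervals and limits of this kind cover counting error only. The methods of the study describe its in vitro data as means of independent experiments, but the labels do not tie the replicate numbers to separate cultures, and p-values measure the spread between these samples. In bulk RNA, fewer cells with a transcript and less of it per cell cannot be told apart. Untreated ERBB2 was highest in NCI-N87 (11280 CPM at 4 h) and MKN7 (3794 CPM) and lower in MKN1 (131 CPM) and Hs746T (85.1 CPM). The summed CPM of 6 epithelial markers had a median of 18360 in MKN1, 17780 in NCI-N87, 6076 in MKN7 and 886 in Hs746T. That of 5 mesenchymal markers was 3973 in Hs746T, 1201 in MKN1, 663 in MKN7 and 245 in NCI-N87, so Hs746T carried little of the epithelial programme. As a check on treatment, of 6 genes that respond to MAP kinase signalling (DUSP6, SPRY4, EGR1, PHLDA1, ETV4 and ETV5), all 5 that could be tested were lower under afatinib in NCI-N87, MKN7 and MKN1 at both times, and none passed in Hs746T. The numbers of the replicates marked shared deviations, so values from a fit with the replicate number as a block are given where they change a call.

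The question of the untreated libraries is what each line starts from. At both times MKN1 had the highest mean ID1, SMAD6 and SMAD7 and was the only line with ID4 above the limit of 3 counts in every untreated library. NCI-N87 had by far the most of the ligand BMP4 but the least ID3 and next to no BMPER, and MKN7 had the most BMPER and almost no BMP2. Hs746T had the highest mean BMP2 and the lowest ID2, SMAD7 and BMP4 at both times. The order of the other levels changed with time: the highest mean ID3 was that of MKN1 at 24 h and of Hs746T at 4 h, the highest ID2 that of MKN1 at 24 h and of NCI-N87 at 4 h, and the lowest ID1 and SMAD6 those of Hs746T at 24 h and of MKN7 at 4 h. The tests between lines were made on the mean of both times and not within a time. Of 54 differences between 2 lines (9 members, 6 pairs), 51 had an adjusted p under 0.05 in edgeR's quasi-likelihood test with Benjamini-Hochberg adjustment. This was true of 73.3% of all genes for NCI-N87 against MKN7, 75.8% for NCI-N87 against MKN1, 76.3% for NCI-N87 against Hs746T, 71.9% for MKN7 against MKN1, 74.3% for MKN7 against Hs746T and 76.5% for MKN1 against Hs746T, so a difference between lines was the rule for all genes.

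**Figure D1:**
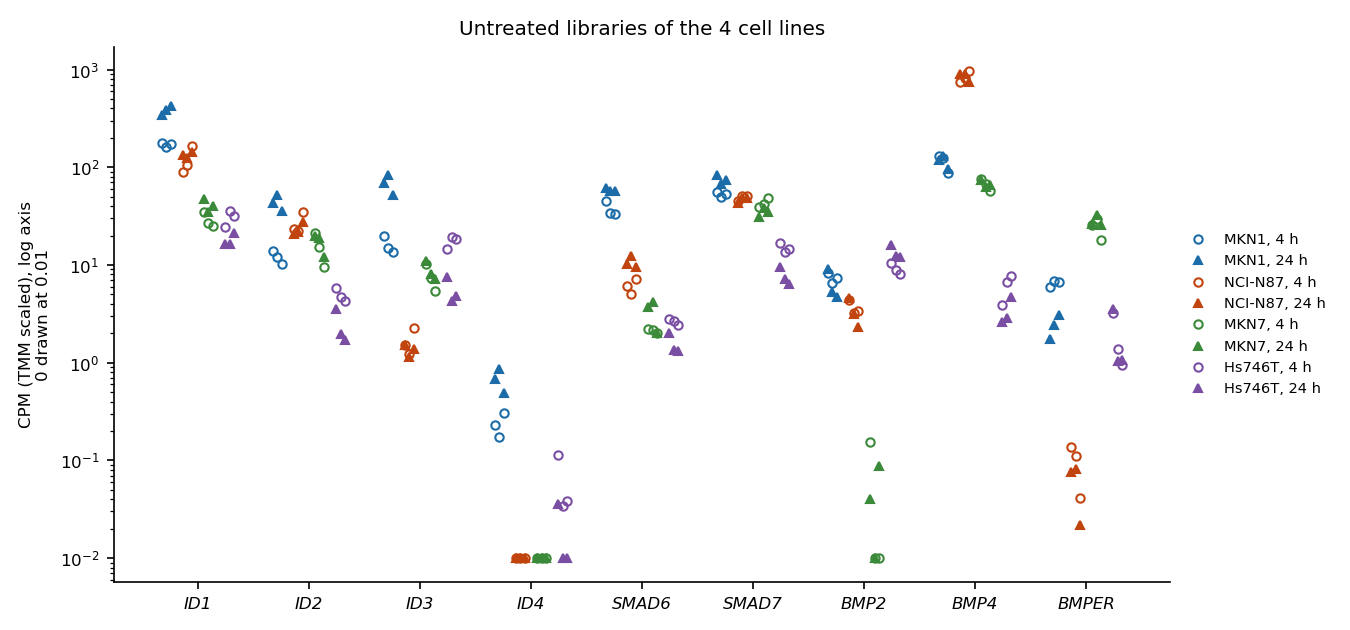
Level of each member in the untreated libraries of the 4 lines, in TMM-scaled CPM on a log axis, with open circles for 4 h and filled triangles for 24 h (3 libraries each) and values of 0 drawn at 0.01. BMP4 in NCI-N87 sits between 752 and 960 CPM, above every other line, and ID4 is clear of the floor in MKN1 alone.

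The ID genes, as BMP targets, did not share 1 order across lines. ID1 ran from 163 to 426 CPM in the 6 untreated MKN1 libraries (median 261), from 90.3 to 165 (129) in NCI-N87, from 25.1 to 47.3 (34.9) in MKN7 and from 16.4 to 36.1 (22.8) in Hs746T. The highest NCI-N87 library just passed the lowest of MKN1, and MKN7 overlapped Hs746T. At 4 h the means of that pair were 29.1 CPM in MKN7 and 30.6 CPM in Hs746T, and at 24 h 40.7 and 18.0 CPM. Its difference over both times (0.57 ± 0.18 log2, SE; adjusted p = 0.00412, edgeR) had an adjusted p of 0.241 without replicate 1. ID2 ran from 10.2 to 52.5 CPM (24.7) in MKN1, from 20.8 to 35.0 (22.9) in NCI-N87, from 9.44 to 21.5 (17.1) in MKN7 and from 1.69 to 5.85 (3.93) in Hs746T. NCI-N87 and MKN1 did not pass as different in ID2 over both times (0.15 ± 0.18 log2, adjusted p = 0.461), but this mean joins opposite directions. At 4 h ID2 was 23.3, 22.4 and 35.0 CPM in NCI-N87 and 13.9, 12.1 and 10.2 CPM in MKN1, and at 24 h it was 20.8, 21.7 and 27.3 CPM and 43.3, 52.5 and 35.4 CPM. The lines did not overlap at either time, NCI-N87 being higher at 4 h and MKN1 at 24 h. MKN7 had a mean ID2 of 15.4 CPM beside 12.1 in MKN1 at 4 h, with overlap, and of 17.0 beside 43.8 at 24 h, without. Over both times it was below MKN1 (-0.50 ± 0.19, adjusted p = 0.0118), with adjusted p = 0.0796 without replicate 2 and 0.0561 without replicate 3, and below NCI-N87 (adjusted p = 0.00103), with 0.285 without replicate 3. Hs746T was below all 3.

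ID3 ran from 13.6 to 83.1 CPM (35.7) in MKN1, from 4.29 to 19.1 (11.1) in Hs746T, from 5.43 to 11 (7.69) in MKN7 and from 1.13 to 2.24 (1.45) in NCI-N87. MKN7 and Hs746T did not pass as different in ID3 over both times (-0.25 ± 0.19 log2, adjusted p = 0.223), which again joins opposite directions. At 4 h every Hs746T library (14.6, 19.1 and 18.4 CPM) was above every one of MKN7 (10.2, 7.36 and 5.43 CPM), and at 24 h the means were 5.54 in Hs746T and 8.70 in MKN7. MKN1 and Hs746T overlapped in ID3 at 4 h (means 16.0 and 17.4 CPM). NCI-N87 lay below MKN7 (-2.42 ± 0.21 log2) with no overlap. ID4 was measured at 0.173 to 0.859 CPM in MKN1 (at most 43 counts), at 0 to 0.113 CPM in Hs746T, with 0 in 2 of 6 libraries, and at 0 in all 6 untreated libraries of NCI-N87 and of MKN7. Over all treatments ID4 stayed at 0 in all 24 MKN7 libraries and in 20 of 24 NCI-N87 libraries, so no fold is given for those lines. The calls for ID4 between Hs746T and either of them rest on 0 to 6 counts and had an adjusted p of 1.0 without replicate 1. Per kilobase of exon, ID1 was the most abundant of the 4 in every line, at 226 CPM per kb in untreated MKN1, 103 in NCI-N87, 28.3 in MKN7 and 19.7 in Hs746T. ID3 in MKN1 came to 23.4 and ID2 to 12.7 on this scale.

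Over both times the fit gave both inhibitory SMADs the same order, MKN1 above NCI-N87 above MKN7 above Hs746T, and for SMAD7 the means followed it at each time. SMAD6 ran from 33.0 to 60.8 CPM (median 51.3) in MKN1, from 5.10 to 12.5 (8.29) in NCI-N87, from 2.02 to 4.18 (2.18) in MKN7 and from 1.30 to 2.79 (2.21) in Hs746T. The last pair reversed with time in SMAD6. At 4 h every Hs746T library (2.43 to 2.79 CPM) was above every one of MKN7 (2.03 to 2.21 CPM), and at 24 h the means were 1.55 and 3.32 CPM with no overlap. Its difference over both times (0.40 ± 0.16 log2, adjusted p = 0.0221) had an adjusted p of 0.276 without replicate 2 and 0.05 without replicate 3. SMAD7 ran from 49.5 to 83.0 CPM (61.6) in MKN1, from 42.9 to 51.2 (48.5) in NCI-N87, from 31.2 to 48.8 (38.7) in MKN7 and from 6.40 to 16.7 (11.6) in Hs746T. With both times joined, neighbouring lines overlapped in SMAD7 except for Hs746T, which was below the others in every library. At 4 h MKN1 overlapped NCI-N87, and NCI-N87 overlapped MKN7. At 24 h no lines overlapped, with 67.3 to 83.0 CPM in MKN1, 42.9 to 48.6 in NCI-N87 and 31.2 to 38.7 in MKN7.

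Among the ligands, BMP4 ran from 752 to 960 CPM (863) in NCI-N87, from 88.5 to 130 (122) in MKN1, from 57.2 to 76.8 (66.9) in MKN7 and from 2.61 to 7.67 (4.32) in Hs746T. No pair of lines overlapped, and NCI-N87 stood 2.92 ± 0.18 log2 units above MKN1. BMP2 ran from 8.01 to 16.2 CPM (11.3) in Hs746T, from 4.71 to 9.02 (6.91) in MKN1, from 2.33 to 4.64 (3.32) in NCI-N87 and from 0 to 0.156 in MKN7 (at most 6 counts, with 0 in 3 of 6 libraries). BMPER, the extracellular modulator, ran from 17.9 to 32.7 CPM (26) in MKN7, from 1.75 to 6.79 (4.5) in MKN1, from 0.944 to 3.52 (1.22) in Hs746T and from 0.0216 to 0.138 in NCI-N87 (at most 7 counts). In Hs746T replicate 1 held the most BMPER of the 3 in each group (3.21, 1.37 and 0.944 CPM untreated at 4 h). The means of MKN1 and Hs746T were 6.46 and 1.84 CPM at 4 h and 2.42 and 1.87 CPM at 24 h. Their difference over both times (1.08 ± 0.34 log2, adjusted p = 0.00327) had an adjusted p of 0.106 without replicate 2 and 0.147 without replicate 3.

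The libraries of 4 h and 24 h also differed without any treatment. In MKN1, ID3, ID2, ID4, ID1, SMAD6 and SMAD7 rose and BMPER fell from 4 h to 24 h, so 7 of 9 members passed the test, where 34.1% of all genes did. By the selection used for "regulated" here and by the study (adjusted p under 0.05 and a log2 fold change, log2FC, beyond 1 in size), 4 members were higher and 1 lower, beside 8.06% of all genes. ID3 was 19.6, 14.8 and 13.6 CPM at 4 h and 69.7, 83.1 and 51.9 CPM at 24 h in replicates 1 to 3 (log2FC 2.07 ± 0.20, SE; adjusted p = 1.18e-09). ID2 was 13.9, 12.1 and 10.2 CPM and then 43.3, 52.5 and 35.4 CPM (1.83 ± 0.21; adjusted p = 2.67e-08). BMPER was 5.93, 6.79 and 6.66 CPM and then 1.75, 2.46 and 3.06 CPM (-1.44 ± 0.17; adjusted p = 6.3e-08). No group overlapped in these 3 genes. ID1 rose by 1.15 and ID4 by 1.48, SMAD6 by 0.63 and SMAD7 by 0.47 (adjusted p = 0.00032 or lower). All comparisons in MKN1 below are within a time, against controls that themselves moved.

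In Hs746T the direction was the opposite for ID3 and SMAD7. ID3 was 14.6, 19.1 and 18.4 CPM at 4 h and 7.48, 4.29 and 4.86 CPM at 24 h (-1.60 ± 0.33, adjusted p = 0.00603), and SMAD7 fell from a mean of 14.9 to 7.73 CPM (-0.90 ± 0.21, adjusted p = 0.0172). These were 2 of 8 members tested, where 1.48% of all genes passed and 0.129% were regulated. Neither call held without replicate 2 (adjusted p = 0.135 and 0.189) or without replicate 3 (0.811 and 0.791), while with the replicate number as a block ID2, SMAD6, BMP4 and ID1 were also lower and BMP2 higher (adjusted p = 4.06e-05, 0.000882, 0.0214, 0.041 and 1.13e-05). In NCI-N87, SMAD6 alone passed, at 6.09, 5.10 and 7.13 CPM and then 10.3, 12.5 and 9.44 CPM (0.84 ± 0.14, adjusted p = 0.0118). This was 1 of 8 members, beside 0.267% of all genes that passed and 0.0472% that were regulated, and its adjusted p was 0.209 without replicate 1 and 0.844 without replicate 2. In MKN7 no member passed (1.76% of all genes were regulated). Under the block ID1 (0.43, adjusted p = 0.00132) and SMAD6 (0.59, 0.0336) were higher and SMAD7 (-0.36, 0.0194) lower.

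EGF was added to MKN1 to ask what an activated EGFR does to the transcripts. After 24 h all 4 ID genes, SMAD6 and SMAD7 fell and BMPER rose. Of 9 members, 4 were regulated lower (ID3, ID4, ID2 and, at a log2FC of -1.0 on the limit, ID1) and 1 higher (BMPER), beside 8.36% of all 19815 genes tested. By adjusted p alone 6 fell and 1 rose, beside 35.8% of all genes. The median log2FC of the members was -0.96, against -0.05 for all genes. The ligands BMP2 and BMP4 did not pass at 24 h.

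ID3 had the largest drop of the ID genes. It was 69.7, 83.1 and 51.9 CPM in untreated cells at 24 h and 10.8, 13.5 and 8.94 CPM with EGF (means 68.2 ± 15.7 and 11.1 ± 2.32, SD, n = 3), a log2FC of -2.61 ± 0.20 (adjusted p = 1.58e-11). ID2 was 43.3, 52.5 and 35.4 CPM and 11.3, 17.6 and 13.3 CPM (-1.63 ± 0.20, adjusted p = 1.75e-07). ID1 was 344, 387 and 426 CPM and 174, 210 and 190 CPM (-1.0 ± 0.16, adjusted p = 6.22e-06). No library with EGF reached an untreated one in any of the 3. ID4 was 0.674, 0.859 and 0.492 CPM (23 to 43 counts) and 0.105, 0.137 and 0.193 CPM (5 to 10 counts), a log2FC of -2.19 ± 0.30 (adjusted p = 9.51e-07) that rests on few counts. With EGF at 24 h ID1 and ID2 overlapped their untreated 4 h libraries, which for ID1 were 177, 162 and 173 CPM. The highest ID3 library with EGF at 24 h (13.54 CPM) only just missed the lowest untreated one of 4 h (13.55 CPM). EGF at 24 h was not tested against untreated cells at 4 h.

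Of the inhibitors, SMAD6 was 60.8, 57.5 and 57.8 CPM in untreated cells and 33.9, 23.8 and 32.6 CPM with EGF (-0.96 ± 0.13, adjusted p = 8.92e-07). SMAD7 was 83.0, 67.3 and 74.8 CPM and 59.9, 50.1 and 60.4 CPM (-0.39 ± 0.07, adjusted p = 9.99e-05). Both were lower in every library with EGF, SMAD7 by less. BMPER went the other way, from 1.75, 2.46 and 3.06 CPM to 15.1, 17.5 and 20.3 CPM (2.88 ± 0.17, adjusted p = 5.64e-14), a level above that of any other MKN1 library. None of the 7 calls was lost on leaving out any 1 replicate number, although ID1 then fell inside the fold limit once, with a log2FC between -1.20 and -0.92 over all alternatives. Markers of fibroblasts, another cell type, also moved: 4 of 5 were lower with EGF at 24 h, and their summed level was 88.7 to 180 CPM in untreated and 39.6 to 42.5 CPM in EGF libraries, each of the 5 with a mean above 0.1 CPM in MKN1. Of 5 mesenchymal markers 3 were higher and none lower, with a summed level of 746 to 1043 CPM in untreated and 1476 to 2065 CPM in EGF libraries. Their part in the result was not tested.

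**Figure D2:**
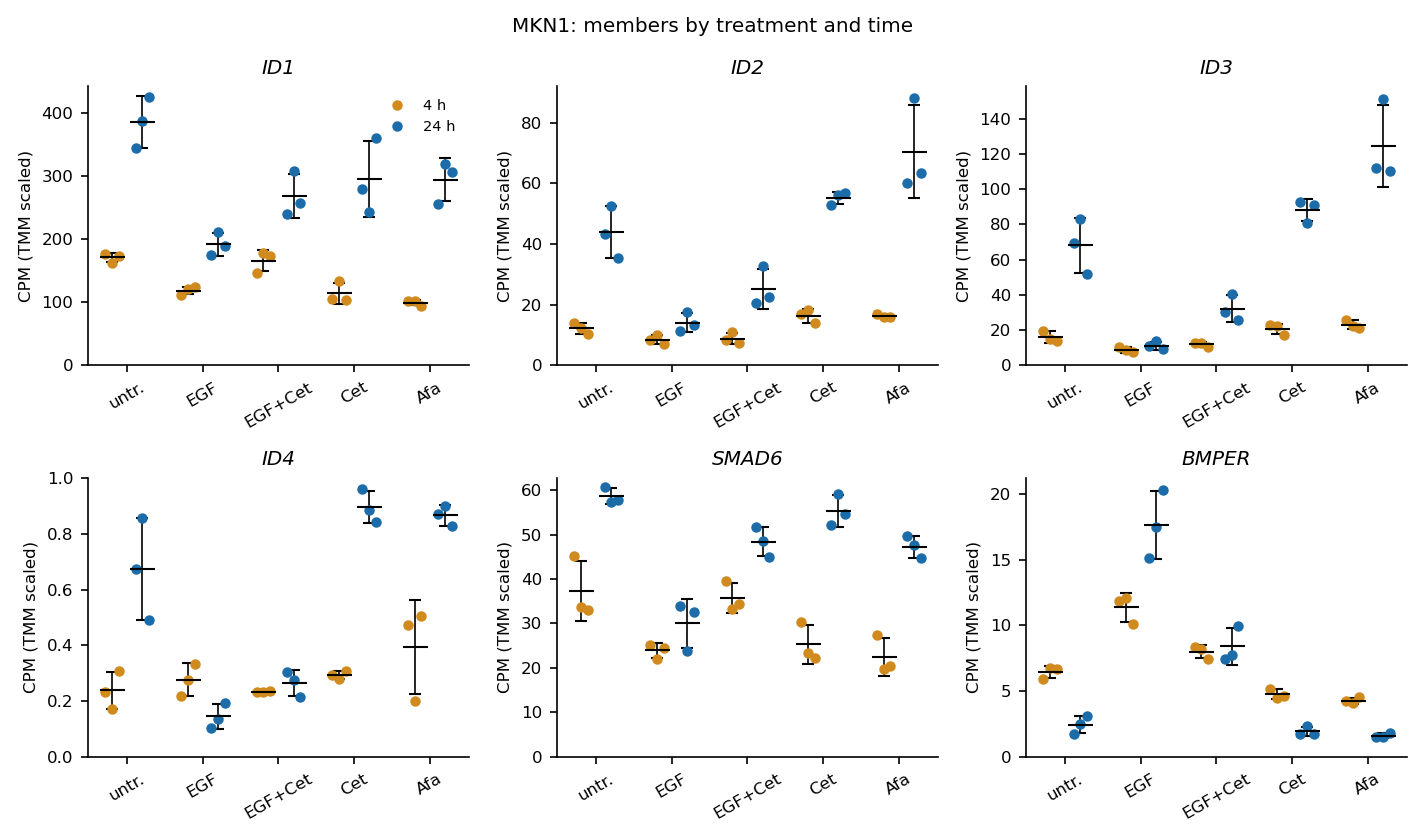
TMM-scaled CPM of 6 members in MKN1 under 5 conditions at 4 h (orange) and 24 h (blue), with 3 points per group and bars for mean ± SD. ID1, ID2, ID3, ID4 and SMAD6 with EGF at 24 h sit below their untreated libraries of 24 h and BMPER sits above, with EGF plus cetuximab between them.

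After 4 h of EGF the changes were smaller and no member was regulated by the fold criterion, beside 1.48% of all genes. By adjusted p alone 4 fell and 2 rose, where 6.82% of all genes passed. BMP4 was 130, 126 and 88.5 CPM in untreated and 53.7, 68.1 and 50.2 CPM in EGF libraries (-0.99 ± 0.18, adjusted p = 0.000215). At 24 h its means were 115 and 107 CPM. ID3 (-0.86 ± 0.20, adjusted p = 0.00416), SMAD6 (-0.63 ± 0.13, 0.00152) and ID1 (-0.52 ± 0.16, 0.0336) were already lower. BMPER was 5.93, 6.79 and 6.66 CPM and then 11.9, 12.1 and 10.1 CPM (0.82 ± 0.16, adjusted p = 0.000624), and BMP2 8.19, 6.47 and 7.35 and then 12.8, 10.8 and 12 CPM (0.70 ± 0.21, 0.0398). ID2 was at -0.52 ± 0.21 with adjusted p = 0.160, or 0.00373 with the replicate block. Without replicate 1 the adjusted p was 0.186 for ID3, 0.159 for BMP4 and 0.318 for ID1, and without replicate 2 or 3 it was 0.0762 and 0.134 for ID1 and 0.179 and 0.292 for BMP2, so SMAD6 and BMPER alone held throughout.

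The change from 4 h to 24 h of EGF was itself tested. For 7 of 9 members the effect differed between the times, beside 9.46% of all genes by adjusted p. The effect at 24 h minus that at 4 h was -1.76 ± 0.28 log2 units for ID3 (adjusted p = 0.000115), -1.11 ± 0.29 for ID2, -2.39 ± 0.44 for ID4 and -0.49 ± 0.11 for SMAD7, and 2.05 ± 0.23 for BMPER (adjusted p = 5.53e-07). For BMP4 and BMP2 the 24 h effects were 0.91 ± 0.25 above and 1.00 ± 0.30 below those of 4 h (log2 differences of 0.91 and -1.0, adjusted p = 0.0176 and 0.0338), so their early changes in opposite directions were both smaller at 24 h. ID3 and BMPER held without any 1 replicate number. Without replicate 1 the adjusted p of the others was 0.233 for ID2, 0.0889 for ID4, 0.128 for SMAD7, 0.432 for BMP4 and 0.138 for BMP2. BMP2 was also lost without replicate 2 (0.112) or 3 (0.133) and BMP4 without replicate 2 (0.0508), and with the block SMAD6 and ID1 differed as well (adjusted p = 0.0361 and 0.0415).

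Cetuximab was combined with EGF to ask how much of the EGF effect a block of the receptor removes. At 24 h the combination lay between EGF and untreated for the ID genes, SMAD6 and BMPER. Against EGF alone ID3, ID2 and SMAD6 rose and BMPER fell, so 4 of 9 members passed by adjusted p, where 0.646% of all genes did, and ID3 and BMPER were 2 regulated members, beside 0.156% of all genes. ID3 with both was 30.3, 40.6 and 25.4 CPM (mean 32.1 ± 7.77), against 11.1 with EGF and 68.2 untreated (1.53 ± 0.20 against EGF, adjusted p = 2.17e-05). BMPER with both was 7.42, 7.78 and 9.99 CPM, against means of 17.7 with EGF and 2.42 untreated (-1.08 ± 0.16 against EGF, adjusted p = 0.000209, and 0.0982 without replicate 2). ID2 with both was 20.5, 32.7 and 22.4 CPM (0.83 ± 0.20, 0.0429) and SMAD6 51.7, 48.6 and 45.0 CPM (0.68 ± 0.13, 0.00535). Without replicate 1 or 3 ID2 had adjusted p = 0.430 and 0.151, and without replicate 2 or 3 SMAD6 had 0.357 and 0.0682, so ID3 alone held throughout. At 4 h SMAD6 alone was higher than with EGF (0.56, adjusted p = 0.0289), beside 0.701% of all genes by adjusted p and 0.126% regulated, and this call was lost without any 1 replicate number (0.128, 0.307 and 0.288). With the replicate block BMP4 (0.70, adjusted p = 9.73e-08) and ID1 (0.47, 0.0216) were also higher and BMPER (-0.52, 0.000843) and BMP2 (-0.56, 0.0013) lower at 4 h, and ID1 (0.47, 0.0123) and SMAD7 (0.16, 0.0314) higher at 24 h.

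Against untreated cells the combination still differed at 24 h. BMPER was higher (1.79, adjusted p = 1.57e-08) and ID3 (-1.09, 0.000114), ID4 (-1.34, 0.000635), ID2 (-0.80, 0.00439), ID1 (-0.53, 0.0155) and SMAD7 (-0.23, 0.0282) were lower. These were 6 of 9 members by adjusted p, beside 18.6% of all genes, and 3 regulated (BMPER, ID3 and ID4), beside 3.38%. SMAD6 was at -0.28 with adjusted p = 0.141, or 0.00735 with the replicate block, and BMP2 at -0.47 with 0.141, or 0.00376. At 4 h no member passed, beside 0.116% of all genes regulated, and with the block ID2 and BMP4 were lower (adjusted p = 0.0240 and 0.0178). The adjusted p of the 24 h calls without replicate 1 was 0.0502 for ID3, 0.222 for ID2, 0.0543 for ID4, 0.381 for SMAD7 and 0.14 for ID1, and without replicate 3 it was 0.212 for SMAD7 and 0.135 for ID1. BMPER held.

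Cetuximab alone asks what the signal already present in MKN1 maintains. At 4 h ID1 and SMAD6 fell, the same direction as with EGF, and at 24 h BMP2 rose. ID1 was 177, 162 and 173 CPM in untreated and 105, 133 and 104 CPM in treated libraries (-0.60, adjusted p = 0.0405), and SMAD6 45.1, 33.8 and 33.0 CPM and 30.3, 23.4 and 22.1 CPM (-0.58, 0.0145). This was 2 of 9 members, beside 1.43% of all genes by adjusted p, with none regulated (0.333% of all genes). ID1 lost the call without replicate 1 (0.393) or 3 (0.441) and SMAD6 without replicate 2 (0.124) or 3 (0.351). With the block BMPER (-0.45, adjusted p = 0.00748) and ID2 (0.41, 0.0427) also passed. At 24 h BMP2 was 9.02, 5.32 and 4.71 CPM and 14.5, 9.76 and 10.2 CPM (0.83, adjusted p = 0.00978), 1 of 9 members beside 10.8% of all genes by adjusted p and none regulated beside 1.33%. That call was lost without replicate 2 (0.0501) or 3 (0.279). The 24 h means of ID3 were 88.3 with cetuximab and 68.2 without it, and the difference did not pass.

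Afatinib in MKN1 acts on the same receptor from the inside. At 4 h ID1, SMAD6 and BMPER fell, and at 24 h ID3, ID2 and BMP2 rose and BMPER fell, so the ID genes did not move as a group. At 4 h, 3 of 9 members passed by adjusted p, beside 3.68% of all genes, and none was regulated, beside 0.681%. At 24 h, 4 of 9 passed, beside 25.6%, and BMP2 alone was regulated, beside 4.19%. The median log2FC of the members at 24 h was 0.02, against 0.01 for all genes.

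ID1 at 4 h was 177, 162 and 173 CPM in untreated and 101, 102 and 94.2 CPM in afatinib libraries, with no overlap (-0.82 ± 0.16, adjusted p = 0.000992, and 0.0549 without replicate 3). At 24 h it was 344, 387 and 426 CPM and 256, 320 and 307 CPM (-0.40, adjusted p = 0.0515, and 0.00743 with the block). So ID1 was lower under EGF, cetuximab and afatinib alike at 4 h, each against the same 3 untreated libraries. SMAD6 followed it, at 27.3, 19.7 and 20.4 CPM with afatinib at 4 h against 45.1, 33.8 and 33.0 untreated (-0.77 ± 0.13, adjusted p = 0.000315, and 0.0572 without replicate 3), and at -0.32 after 24 h (adjusted p = 0.0639, and 0.00148 with the block). BMPER at 4 h was 4.22, 4.08 and 4.52 CPM (-0.63 ± 0.16, adjusted p = 0.0223), a call that was lost without any 1 replicate number (0.0677, 0.279 and 0.0659).

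ID3 at 24 h was 69.7, 83.1 and 51.9 CPM in untreated and 112, 152 and 111 CPM in afatinib libraries (means 68.2 ± 15.7 and 125 ± 23.2; 0.85 ± 0.19, adjusted p = 0.000849), which held without any 1 replicate number. ID2 was 43.3, 52.5 and 35.4 CPM and 60.0, 88.0 and 63.3 CPM (0.67 ± 0.20, adjusted p = 0.0103, and 0.0677 without replicate 1 and 0.135 without replicate 3). Both lay in the opposite direction to EGF, and neither group overlapped. BMP2 was 9.02, 5.32 and 4.71 CPM and 16.8, 11 and 14.7 CPM (1.14 ± 0.21, adjusted p = 0.000155, and 0.0613 without replicate 3). BMPER at 24 h was 1.75, 2.46 and 3.06 CPM and 1.49, 1.48 and 1.80 CPM, overlapping groups (-0.62 ± 0.18, adjusted p = 0.0110, and 0.128 without replicate 2 and 0.0985 without replicate 3). At 4 h ID3 (0.50) and ID2 (0.39) passed under the block alone (adjusted p = 0.0110 and 0.0315, against 0.173 and 0.377). The fibroblast markers were higher with afatinib at 24 h in 4 of 5 cases, with a summed level of 326 to 349 CPM against 88.7 to 180 untreated, and their part in the result was not tested.

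Set on trastuzumab as the background, afatinib gave a like picture in MKN1. At 4 h ID1 (-0.85, adjusted p = 0.000617) and SMAD6 (-0.71, 0.000835, and 0.105 without replicate 3) fell, 2 of 9 members beside 3.08% of all genes by adjusted p and none regulated beside 0.631%. At 24 h BMP2 (1.20, adjusted p = 7.21e-05) and ID3 (0.60, 0.0152) rose and BMPER (-0.69, 0.00369) and ID1 (-0.48, 0.0174) fell, 4 of 9 beside 27.9%, with BMP2 regulated beside 4.22%. BMP2 held without any 1 replicate number, whereas ID3 was lost without replicate 1 (0.160) or 3 (0.220), BMPER without replicate 3 (0.0945) and ID1 without replicate 2 (0.312) or 3 (0.0676). With the block ID3 (0.48, adjusted p = 0.0183) and ID2 (0.37, 0.0467) were higher and BMPER (-0.56, 0.000522) and BMP4 (-0.26, 0.0192) lower at 4 h as well. No member differed between afatinib and cetuximab, except ID3 at 24 h under the block (0.51, adjusted p = 0.0228, against 0.497 without it), nor between the combination with trastuzumab and afatinib alone.

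In MKN7, a line with high ERBB2, afatinib raised ID3, ID2 and SMAD6 at 24 h and lowered ID1 at 4 h. At 24 h, 3 of 7 members tested passed by adjusted p, beside 51.6% of all genes, so members passed no more often than genes at large. ID3 and ID2 were regulated higher, beside 13.5% of all genes regulated in either direction. ID3 was 11, 8.01 and 7.13 CPM in untreated and 33.4, 24.4 and 25.8 CPM in afatinib libraries (means 8.70 ± 2.01 and 27.9 ± 4.82; 1.68 ± 0.25, adjusted p = 9.31e-06). ID2 was 19.9, 19.0 and 12.1 CPM and 56.0, 50.4 and 36.2 CPM (1.48 ± 0.30, adjusted p = 0.000267). No afatinib library of either gene overlapped the untreated ones, and both calls held without any 1 replicate number. SMAD6 was 3.75, 4.18 and 2.02 CPM and 5.89, 6.39 and 5.13 CPM (0.80 ± 0.25, adjusted p = 0.0107, and 0.0516 without replicate 3). SMAD7 (0.27) passed under the block alone (adjusted p = 0.00163, against 0.0748), and the means of ID1 were 40.7 and 41.5 CPM. Of 6 epithelial markers 4 were lower and none higher, with a summed level of 6082 to 7163 CPM in untreated and 4448 to 5245 CPM in afatinib libraries at 24 h. Of the fibroblast markers 2 of 4 tested were higher (summed 15.8 to 21.4 and 22.0 to 28.2 CPM), with DCN under 0.1 CPM on average in MKN7, and their part in these results was not tested.

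At 4 h ID1 in MKN7 was 34.9, 27.1 and 25.1 CPM in untreated and 24.6, 12 and 17.2 CPM in afatinib libraries (-0.75 ± 0.23, adjusted p = 0.0227). This was the only call of 7 members by adjusted p, where 22.2% of all genes passed and 3.4% were regulated, and it was lost without replicate 2 (0.139) or 3 (0.142). ID2 was 21.5, 15.3 and 9.44 CPM and 35.8, 23.1 and 23.5 CPM (0.78 ± 0.30, adjusted p = 0.0630, without the block). It passed under the block (adjusted p = 3.74e-07), as did ID3 (0.58, 0.000444 against 0.108) and SMAD7 (-0.24, 0.00711 against 0.185). Replicate 1 had the highest ID2 of both groups, so the spread that the block removes was shared. With afatinib added to trastuzumab, ID1 was regulated lower at 4 h (-1.04 ± 0.23, adjusted p = 0.00254), beside 2.96% of all genes, and ID3 (1.32, 0.000176) and ID2 (1.14, 0.00331, and 0.0802 without replicate 2) higher at 24 h, beside 9.7%. The ID1 fold of 4 h fell inside the limit once when a replicate number was left out. With the block ID3 (adjusted p = 0.0142) and ID2 (0.000415) passed at 4 h and SMAD6 (0.00633) and SMAD7 (0.00527) at 24 h, all higher.

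**Figure D3:**
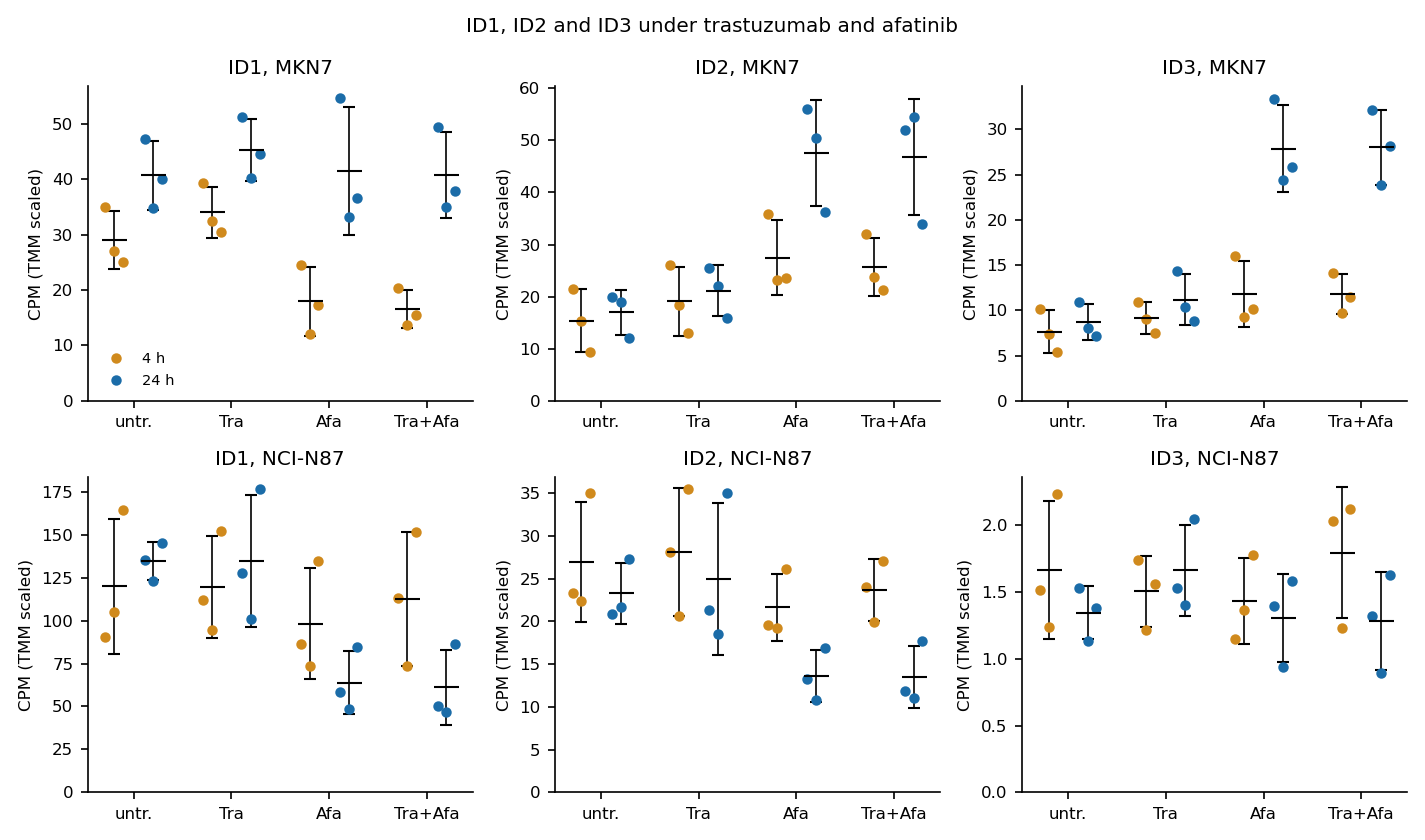
TMM-scaled CPM of ID1, ID2 and ID3 in MKN7 (top) and NCI-N87 (bottom) under trastuzumab, afatinib and both, at 4 h (orange) and 24 h (blue), with 3 points per group and bars for mean ± SD. ID2 and ID3 with afatinib at 24 h sit above the untreated libraries in MKN7, and ID1 and ID2 sit below them in NCI-N87.

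In NCI-N87, the other line with high ERBB2, ID2 moved the other way at 24 h, and ID3 did not pass. At 24 h of afatinib ID1, ID2, SMAD6 and SMAD7 fell, and BMPER rose from next to nothing. These were 5 of 8 members tested by adjusted p, beside 62.5% of all genes, and 2 regulated (ID1 and BMPER), beside 29.6%, so the share of members that passed was near that of all genes. The median log2FC of the members was -0.37, against 0.03 for all genes. ID1 was 135, 123.2 and 145 CPM in untreated and 58.3, 48.8 and 84.4 CPM in afatinib libraries (-1.14 ± 0.30, adjusted p = 0.00232, and 0.0684 without replicate 1). ID2 was 20.8, 21.7 and 27.3 CPM and 13.2, 10.8 and 16.9 CPM (-0.84 ± 0.25, adjusted p = 0.00540, and 0.0710 without replicate 1). Neither overlapped. ID3, at 1.53, 1.13 and 1.38 CPM and 1.40, 0.940 and 1.58 CPM, did not pass and overlapped throughout.

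SMAD6 (10.3, 12.5 and 9.44 CPM, then 8.08, 8.34 and 9.45 CPM; -0.39, adjusted p = 0.0168) lost its call without replicate 1 (0.19) or 2 (0.250). SMAD7 (42.9, 48.3 and 48.6 CPM, then 35.6, 33.8 and 44.3 CPM; -0.36, 0.00191) lost it without replicate 2 (0.129). Each of these inhibitors had 1 afatinib library inside the untreated range. Both falls were smaller with library size alone in place of TMM. The means were then 10.9 and 9.95 CPM for SMAD6 and 47.1 and 43.7 CPM for SMAD7. Those of ID1 on that scale were 136 and 73.2 CPM. BMPER rested on 1 to 4 counts in untreated and 7 to 27 counts in afatinib libraries (2.24 ± 0.70, adjusted p = 0.00855), with 0.0832 without replicate 1 and 0.0501 without replicate 2. BMP4 was 901, 907 and 754 CPM and 588, 715 and 870 CPM, overlapping groups (-0.30, adjusted p = 0.0734, and 0.0167 with the block), and BMP2 passed under the block alone (-0.59, 0.00250 against 0.237). The summed epithelial markers were 17950 to 20800 CPM in untreated and 10210 to 12560 CPM in afatinib libraries at 24 h, with 1 of 6 higher and 3 lower. The mesenchymal markers went from 244 to 280.3 CPM to 95.3 to 129.8 CPM, with 2 of 5 lower. The fibroblast markers went from 12.4 to 18.3 CPM to 24.4 to 26.7 CPM, with 1 of 3 tested higher and DCN and PDGFRB under 0.1 CPM on average. Their part in these results was not tested.

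With trastuzumab as the background the same 4 genes were lower with afatinib at 24 h in NCI-N87, and BMP4 passed as well. ID1 was at -1.18 (adjusted p = 0.00185), ID2 at -0.93 (0.00266), SMAD6 at -0.53 (0.00186), SMAD7 at -0.32 (0.00554) and BMP4 at -0.46 (0.00874), 5 of 8 members beside 61.8% of all genes, with ID1 regulated beside 28.2%. Without replicate 1 the adjusted p was 0.0605 for ID1, 0.0545 for ID2, 0.137 for BMP4 and 0.0605 for SMAD6, and without replicate 2 it was 0.0837 for BMP4 and 0.119 for SMAD7. With library size alone in place of TMM, SMAD7 had means of 45.6 CPM with trastuzumab and 44.4 CPM with both drugs. SMAD6 had 12.2 and 10.2 CPM. With the block ID3 (-0.41, adjusted p = 0.0360) and BMP2 (-0.55, 0.00444) were lower and BMPER (1.19, 0.0394) higher at 24 h, and BMP2 (-0.98, 2.91e-05) lower and SMAD7 (0.17, 0.0360) higher at 4 h. At 4 h no member passed in the comparison of afatinib with untreated cells, beside 3.24% of all genes regulated, and with the block SMAD7 was higher (0.23, adjusted p = 0.00650) and ID2 (-0.30, 0.0175) and BMP2 (-0.54, 0.00531) lower. The untreated 4 h libraries of NCI-N87 were the more spread, with ID1 at 90.3, 105 and 165 CPM.

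The study classed Hs746T as a non-responder to cetuximab and to afatinib. No member passed for EGF, cetuximab or afatinib at either time, and no gene at all did (0% of all genes regulated in each of the 6 comparisons). The log2FC of the 8 members tested lay between -0.28 and 0.36 for afatinib, -0.24 and 0.17 for EGF and -0.12 and 0.24 for cetuximab. At an unadjusted p under 0.05 edgeR gave 1371 genes at 4 h and 330 at 24 h for afatinib, 364 and 155 for EGF and 196 and 145 for cetuximab, and DESeq2 gave 1 and 2 genes at an adjusted p under 0.05 for afatinib and 0 for the others. ID3 at 4 h was 14.6, 19.1 and 18.4 CPM in untreated and 19.2, 25.8 and 19.8 CPM in afatinib libraries, and with the replicate block it (0.36, adjusted p = 0.0146) and SMAD7 (-0.22, 0.0422) passed.

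With trastuzumab alone no member passed in any line, including NCI-N87, and no gene passed edgeR's test (0% of all genes regulated in each line at each time). The log2FC of the members lay between -0.16 and 0.61 in all but BMPER of NCI-N87, a gene at the floor there with 0.90. In MKN7 ID1, ID2, ID3 and SMAD6 were at 0.16 to 0.38 and higher in all 3 same-numbered pairs at both times. These are 4 of 7 members tested, and the share of all genes with such pairs is not given here. The mean of SMAD7 was lower with trastuzumab, at 43.3 and then 42.5 CPM at 4 h and 34.9 and then 34.1 CPM at 24 h. ID3 was 11, 8.01 and 7.13 CPM in untreated and 14.3, 10.4 and 8.86 CPM in trastuzumab libraries of MKN7 at 24 h, and the lowest adjusted p of any member with the replicate block was 0.1325 (ID2 in MKN7 at 24 h). At an unadjusted p under 0.05 there were 434 genes at 4 h and 786 at 24 h in NCI-N87, 661 and 590 in MKN7, 254 and 158 in MKN1 and 322 and 125 in Hs746T. DESeq2 gave 1 gene at each time in NCI-N87 and none elsewhere at an adjusted p under 0.05.

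**Figure D4:**
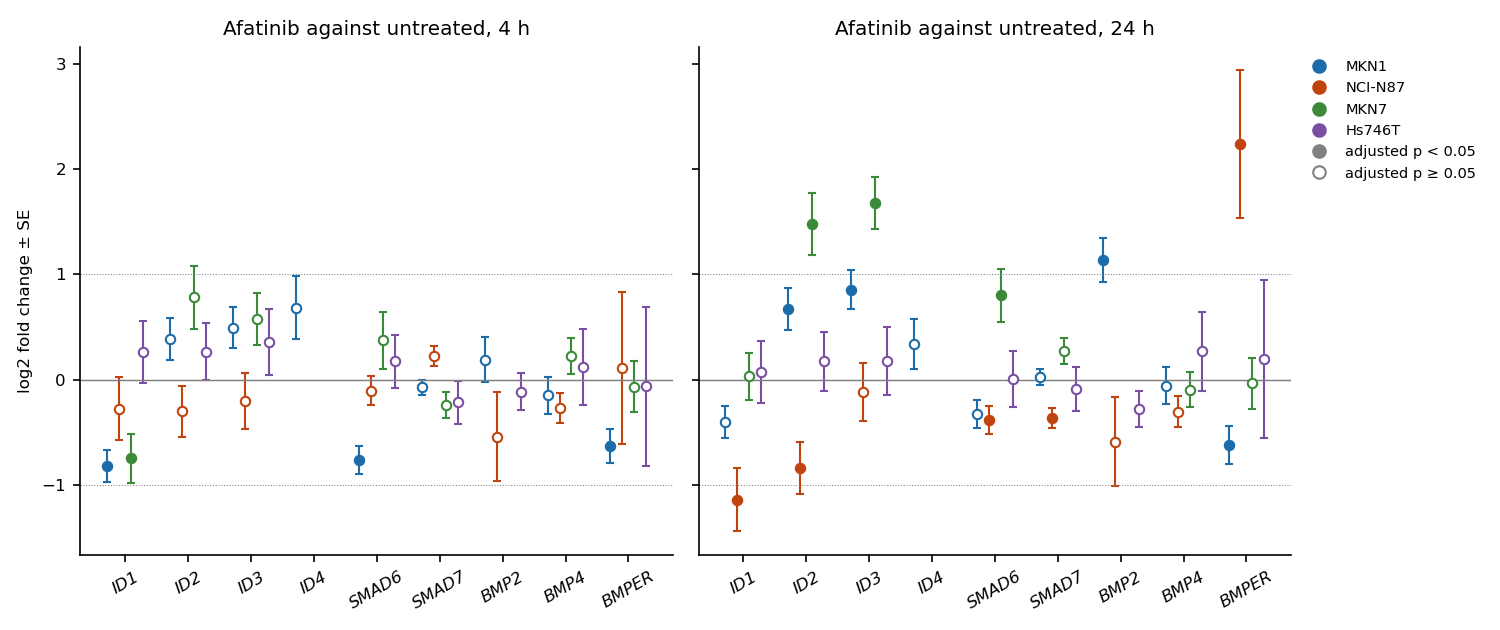
The log2 fold change (± SE) of each member under afatinib against untreated cells at 4 h (left) and 24 h (right) in the 4 lines, with filled points for an adjusted p under 0.05 and dotted lines at the fold limit of 1. At 24 h ID2 is at 1.48 in MKN7 and 0.67 in MKN1 and at -0.84 in NCI-N87, while no point of Hs746T is filled.

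Whether the lines differed in their afatinib response was tested as an interaction in 1 fit of the libraries of all lines. In that fit 14 of 108 line differences over both times passed, and 51 with the replicate block. Without the block 4.41% to 35.1% of all genes passed at 24 h, depending on the pair of lines. At 4 h the only call without the block was SMAD6 for MKN7 against MKN1, beside 1.38% of all genes for that pair. The share of all genes with the block is not given here, so the count of 51 has no background beside it. At 24 h the effect in NCI-N87 lay below that in MKN7, with differences of -2.30 ± 0.37 log2 units for ID2 (adjusted p = 5.25e-07), -1.77 ± 0.43 for ID3 (0.000812), -1.16 ± 0.29 for SMAD6 (0.00138), -1.15 ± 0.36 for ID1 (0.0137) and -0.61 ± 0.21 for SMAD7 (0.0228), 5 of 9 members beside 21.4% of all genes by adjusted p. The effects in both lines with high ERBB2 thus differed from each other in all 3 ID genes expressed there and in both inhibitory SMADs. ID2 and ID3 held without any 1 replicate number. The adjusted p of SMAD6 was 0.0600 without replicate 3, that of ID1 0.126 without replicate 1 and 0.0663 without replicate 2, and that of SMAD7 0.169 without replicate 2 and 0.103 without replicate 3.

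NCI-N87 was also below MKN1 for ID2 (-1.5 ± 0.37, adjusted p = 0.000745) and BMP2 (-1.71 ± 0.42, 0.000703, and 0.0714 without replicate 3), 2 members beside 28% of all genes, and below Hs746T for ID1 (-1.19 ± 0.37, 0.00670, and 0.0527 without replicate 1) and ID2 (-0.96 ± 0.40, 0.04995, and 0.281 without replicate 2 and 0.121 without replicate 3), 2 beside 35.1%. MKN7 was above Hs746T for ID3 (1.52 ± 0.38, 0.00175, and 0.0881 without replicate 3) and ID2 (1.33 ± 0.40, 0.01003, and 0.141 without replicate 1 and 0.0594 without replicate 2), 2 beside 18.8%. MKN7 was above MKN1 for SMAD6 alone (1.12 ± 0.29, 0.00569, and 0.201 without replicate 3), 1 beside 7.61%, and was so at 4 h too (1.17 ± 0.30, 0.0203, beside 1.38% of all genes), where the call was lost without any 1 replicate number (0.114, 0.188 and 0.260), and MKN1 above Hs746T for BMP2 alone (1.43 ± 0.40, 0.0198, and 0.155 without replicate 2 and 0.639 without replicate 3), 1 beside 4.41%. The rise of ID3 and ID2 in MKN7 and in MKN1 did not pass as different between these lines (0.82 ± 0.36 and 0.80 ± 0.36, adjusted p = 0.182 and 0.193, and 5.6e-05 and 1.81e-06 with the block). For EGF at 24 h, MKN1 differed from Hs746T in ID3 (-2.60 ± 0.38, adjusted p = 7.77e-07), ID2 (-1.5 ± 0.40, 0.00857, and 0.0670 without replicate 1 and 0.14 without replicate 2) and BMPER (2.88 ± 0.68, 0.00230, and 0.117 without replicate 2), 3 members beside 7.93% of all genes. With the block ID1, SMAD6, SMAD7 and ID4 differed as well (adjusted p = 9.12e-07, 0.00144, 0.00167 and 0.0149).

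A wider list of 72 genes of the pathway gives the setting, with the log2FC of those named. With EGF in MKN1 4 of 65 tested were regulated higher and none lower at 4 h, beside 1.48% of all genes, and 6 higher and 4 lower at 24 h, beside 8.36%. NOG, which encodes noggin, an antagonist that binds BMPs outside the cell, was 2.10, 2.88 and 4.11 CPM in untreated and 18.8, 24.5 and 22.9 CPM in EGF libraries at 24 h (2.88 ± 0.21, adjusted p = 8.99e-12). ATOH8, a transcription factor gene induced by BMPs, was 3.97, 3.10 and 2.10 CPM and 0.314, 0.387 and 0.232 CPM (-3.29 ± 0.29, adjusted p = 3.34e-10), in the direction of the ID genes. The ligand gene BMP6 was higher (1.78 ± 0.16, adjusted p = 6.24e-10) and the ligand gene BMP5 lower (-1.66), and at 4 h FST, an antagonist of activins and BMPs, was higher (2.0 ± 0.39). With cetuximab beside EGF, ATOH8 was higher (1.43) and NOG lower (-1.07) at 24 h than with EGF alone, 1 higher and 1 lower of 65 beside 0.156% of all genes. With afatinib in MKN1 NOG was regulated lower at 4 h (-1.79 ± 0.21) with HES1 (-1.17), 2 of 65 beside 0.681% of all genes, and at 24 h 4 were higher, beside 4.19%, namely BMP3 (1.95), SOSTDC1 (1.27), ATOH8 (1.12) and DLX3 (1.01).

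In MKN7 afatinib left 5 of 62 tested regulated higher and 4 lower at 4 h, beside 3.4% of all genes, and 9 higher and 4 lower at 24 h, beside 13.5%. At 24 h ATOH8 (2.50, from a mean of 0.127 to 0.740 CPM) and the ligand genes BMP5 (2.30) and GDF7 (1.84) were higher, and NOG was lower (-1.73 ± 0.15, from 18.0 to 5.42 CPM). In NCI-N87 2 of 58 were higher and 2 lower at 4 h, beside 3.24% of all genes, and 8 higher and 11 lower at 24 h, beside 29.6%, a share of the list near that of all genes. There NOG (-4.21 ± 0.49, from 1.20 to 0.0652 CPM), BMP6 (-3.78 ± 0.28, from 3.71 to 0.279 CPM) and PMEPA1, an inhibitor of TGF-beta signalling (-2.61 ± 0.11, from 1208 to 208 CPM), were lower, and GDF7 (2.40) and ATOH8 (1.61 ± 0.34, adjusted p = 0.000311) were higher. ATOH8 and NOG were followed across lines after their values were seen. ATOH8 was higher with afatinib at 24 h in MKN1, MKN7 and NCI-N87, although ID1 and ID2 were lower in NCI-N87, and NOG was lower in all 3, in MKN1 at -0.69 ± 0.23 (adjusted p = 0.0224). In Hs746T none of 59 tested was regulated, beside 0% of all genes.

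Genes whose pattern was most like that of a member were ranked by Pearson's r over all libraries after centring each line and time, among 9884 genes with a mean log2 CPM above 1 in every line. This is a description over libraries that share lines, replicates and depth. For ID1 they were C1orf122 (r = 0.705), SMIM4 (0.695) and LYPLA2 (0.691), for ID2 C9orf3 (0.791), PTGR1 (0.775) and CTH (0.769), and for SMAD6 RHOBTB3 (0.644), SCARA3 (0.626) and COL12A1 (0.615). ID1 and ID2 had r = 0.208 with each other and ID2 and SMAD6 had r = 0.52. ID3 was below the minimum in NCI-N87 and was not ranked.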

How the data were processed

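The authors sequenced polyA RNA from a directional kit, and their processing notes name Trim Galore, STAR and hg38. They deposited raw read counts per gene for 132 libraries; counting tool, strand setting and annotation version are not given in the sources used here. Of 65217 identifiers, 56813 matched GENCODE 29 and the other 8404 held 0.0422% of counts. Samples were grouped by their labels. Counts were fitted per line with edgeR 4.0.16 (R 4.3.3; TMM, filterByExpr with a minimum count of 10, quasi-likelihood test), and all 132 libraries together for differences between lines. Adjusted p is Benjamini-Hochberg over all genes tested. A single gene rose or fell at adjusted p under 0.05, and was regulated if the log2FC also exceeded 1 in size. The SE is the log2FC divided by the root of F. Levels are CPM with TMM over all libraries; a fitted log2FC differed from the log2 ratio of printed means by at most 0.089. Tables and figures used Python 3.11.15 with pandas 2.3.3 and matplotlib 3.10.9. The fits and motif search were tested on simulated data.

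Alternatives were DESeq2 1.42.0, library size alone, 2 other filters, the compared groups alone, the replicate number as a block, and each replicate number left out. Same-numbered libraries deviated together: in 24 of 26 comparisons every same-number correlation over 11827 genes was above 0.1 (lowest 0.107), so the numbers were taken to pair the libraries. The exceptions were MKN1 with cetuximab at 24 h (-0.012) and with trastuzumab plus afatinib against trastuzumab at 24 h (-0.065). A log2FC or SE beside a p from the block is that of the fit without it, so such an SE does not belong to that p. The genes named are the 9 members, of the wider lists at most the 4 largest changes per main comparison, and the 3 most similar genes. One gene that this rule names is not reported here. The members and lists were chosen with earlier results of these data known.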

Additional observations from a re-analysis of the deposited data

Results flagged for a closer look

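The results here are those whose effect differed between times or between lines by a test of the difference itself, in edgeR's quasi-likelihood fits with Benjamini-Hochberg adjustment. No explanation was weighed. For EGF, the calls that held without any 1 replicate number were ID3 and BMPER over time and ID3 between lines. For afatinib they were ID2 and ID3 between NCI-N87 and MKN7, and ID2 between NCI-N87 and MKN1. The other calls below from the fit without the block were each lost at least once. Shares of all genes for the EGF and the line differences stand with them above.

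For EGF in MKN1 the log2 effect at 24 h minus that at 4 h was -1.76 for ID3 (adjusted p = 0.000115), -1.11 for ID2 (0.0121), -2.39 for ID4 (0.000669), 2.05 for BMPER (5.53e-07), 0.91 for BMP4 (0.0176), -0.49 for SMAD7 (0.00269) and -1.0 for BMP2 (0.0338). The 24 h EGF effect in MKN1 minus that in Hs746T was -2.60 for ID3 (7.77e-07), -1.5 for ID2 (0.00857) and 2.88 for BMPER (0.00230).

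For afatinib the effect at 24 h minus that at 4 h was -0.59 for SMAD7 in NCI-N87 (adjusted p = 0.00146, and 0.0742 without replicate 2), where 35.8% of all genes passed. In MKN7, where 18% did, it was 1.11 for ID3 (0.0312, and 0.175 without replicate 2 and 0.127 without replicate 3) and 0.51 for SMAD7 (0.0482), which was lost without any 1 replicate number (0.238, 0.0596 and 0.167). The change of the afatinib effect on SMAD7 between the times had opposite signs in NCI-N87 and MKN7, but neither call held throughout. With the replicate block ID1 (-0.87, adjusted p = 9.72e-05), ID2 (-0.54, 0.00118) and BMPER (2.13, 0.0498) also passed in NCI-N87, and ID1 (0.78, 6.52e-05) and ID2 (0.70, 0.000253) in MKN7. In MKN1 SMAD6 (0.44, 0.00835) and BMP2 (0.95, 7.47e-05) passed with the block alone.

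Between lines, the 24 h afatinib effect in NCI-N87 minus that in MKN7 was -1.77 for ID3 (adjusted p = 0.000812), -2.30 for ID2 (5.25e-07), -1.16 for SMAD6 (0.00138), -0.61 for SMAD7 (0.0228) and -1.15 for ID1 (0.0137). Against MKN1 it was -1.5 for ID2 (0.000746) and -1.71 for BMP2 (0.000703), and against Hs746T -0.96 for ID2 (0.04995) and -1.19 for ID1 (0.00670). MKN7 minus MKN1 gave 1.17 at 4 h (0.0203) and 1.12 at 24 h (0.00569) for SMAD6. MKN7 minus Hs746T gave 1.52 for ID3 (0.00175) and 1.33 for ID2 (0.01003), and MKN1 minus Hs746T gave 1.43 for BMP2 (0.0198).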

How the results depend on the processing

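No member changed direction among its calls under any alternative run. With afatinib in NCI-N87 at 24 h the 2 regulated members became 1 with only the compared groups in the fit, with library size alone and with at least 10 counts in every library, 5 by adjusted p alone, and 0 to 2 when a replicate number was left out. By adjusted p alone the regulated members went from 0 to 1 for afatinib in MKN7 at 4 h, from 0 to 3 at 4 h and 1 to 4 at 24 h for afatinib in MKN1, from 0 to 2 at 4 h and 0 to 1 at 24 h for cetuximab, and from 0 to 6 for EGF at 4 h. The EGF count at 4 h was 1 with the compared groups alone and with library size alone, and 0 to 1 without a replicate number. The count for afatinib in MKN1 at 24 h was 0 to 1 without a replicate number. The 5 members regulated by EGF at 24 h were 5 to 6 without a replicate number. Line differences in the afatinib effect numbered 14, 51 with the replicate block, and 6 to 12 without a replicate number. Untreated differences numbered 51, and 47 to 49 without a replicate number. Afatinib effects that differed between times numbered 3, 10 with the replicate block, 1 with the compared groups alone, and 0 to 3 without a replicate number. The replicate block turned 108 values of members into calls and ended none. Those in the comparisons described stand beside them where the numbers paired the libraries, and the others are in these counts only. The share of all genes that the block turned into calls is not given here, so its counts say nothing about the members as a set. The block with the number alone, for the untreated times, was chosen after seeing the data. The cause of these changes was not tested.

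With library size alone in place of TMM the median log2FC of all genes moved from 0.03 to 0.29 for afatinib in NCI-N87 at 24 h and from -0.05 to -0.24 for EGF in MKN1 at 24 h. The share of regulated genes that were higher moved from 61.2% to 77% and from 25.3% to 11.8%. It moved from 83.3% to 67.1% for EGF at 4 h, from 35.6% to 52.9% for afatinib in MKN1 at 4 h, from 53.3% to 65.7% for afatinib in MKN7 at 4 h, and from 77.7% to 89.1% for untreated MKN1 over time. For afatinib on trastuzumab it moved from 61.8% to 79.1% in NCI-N87 and from 75.7% to 88.3% in MKN1 at 24 h, and from 58.9% to 70.6% in MKN7 at 4 h. ID4 outside MKN1, BMP2 in MKN7 and BMPER in NCI-N87 were too close to 0 at this depth for a difference to be detected or sized well.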
